A study of Mus musculus with 8 samples.

Results

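The genes described here are 7 myosin heavy chains of striated muscle (*Myh1*, *Myh2*, *Myh3*, *Myh4*, *Myh7*, *Myh7b* and *Myh8*) and 3 of their sarcomeric and cytosolic partners (*Actn2*, *Actn3* and *Pvalb*). Every non-control spot that carried one of these 10 gene names on the array was taken, which gave 10 of 37074 gene names and 22 of 56605 probes. The names had been chosen by the signal of muscle genes on these same arrays. RNA from tissue labelled as brown adipose tissue (BAT) was hybridized to 8 Agilent one-color arrays, 1 for each of 4 control (Co) and 4 *P. gingivalis* (Pg) mice. All 8 animals were C57BL/6J mice of 12 weeks, male by the study's methods and with no other allele named. Co mice received 100 μL of saline intravenously, Pg mice received sonicated *P. gingivalis*, a periodontal bacterium, in the same volume of saline, and tissue was taken 18 h later from both. All values below are on the log2 scale of the quantile-normalized signal, on which a difference of 1 is a doubling.

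A myosin heavy chain is the motor protein of the thick filament, and each muscle fibre is typed by the heavy chain it mainly expresses. *Myh7* encodes the slow (type I) chain, which the heart also uses, and *Myh2*, *Myh1* and *Myh4* encode the fast IIa, IIx and IIb chains in order of rising shortening speed. *Myh3* and *Myh8* encode the embryonic and perinatal chains, which reappear in regenerating and some specialised fibres, and *Myh7b* is an ancient relative that hosts a microRNA. *Actn2* and *Actn3* encode the α-actinins that anchor thin filaments at the Z-disc, the latter in fast fibres only, and *Pvalb* encodes parvalbumin, a calcium buffer of fast fibres in mice. Brown adipocytes share a developmental precursor with skeletal muscle but are not known for sarcomeres.

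The tissue label was compared with the defining markers of this tissue. The probe of *Ucp1*, the uncoupling protein that defines brown adipocytes, lay between 2.09 and 2.26 and was not well above background on any of the 8 arrays. The same was true of *Elovl3*, *Slc27a2* and *Bmp8b*, while the other 8 of 12 brown adipocyte markers were above background on all arrays, among them *Cidea* at 13.16 to 13.52. On the log2 scale, the summed signal of the 12 markers was 18.84 to 18.99 in Co and 18.97 to 19.10 in Pg mice. *Cox7a1* and *Cox8b*, respiratory chain subunits that striated muscle also expresses, made up 96.2% to 97.3% of this sum. All 17 listed partners of fast fibres and all 12 of slow fibres were above background on all arrays. Of 10 heart markers, *Nppb*, *Ryr2* and *Tbx5* were above background on no array, *Gata4*, *Myl7* and *Nkx2-5* on 1 array each, and the other 4 were tested. In bulk tissue, fewer cells of a type cannot be told apart from less RNA per cell. Muscle genes were thus measured at high signal in all 8 samples, and the myosins are described as found, without assignment to brown adipocytes. All arrays lay on 1 slide, Co in row 1 and Pg in row 2, so that group and slide position cannot be told apart. Probes above background numbered 34760 to 35830 per Co array and 31132 to 34063 per Pg array (p = 0.0286 in a two-sided exact permutation test, which cannot go lower with this design).

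The sequences below are shown because the brightest *Myh4* probe varied between arrays far more than those of *Myh2*, *Myh1* and *Myh8* in its cluster. This contrast depends on the probe. The other *Myh4* probes spanned 2.25-fold and 2.19-fold, and the brightest probes of *Myh2* and *Myh8* lie near the top of the scale. Another reason is that the signals of *Myh1* and *Myh8* rest on probes that share letters. *Myh3*, *Myh2*, *Myh1*, *Myh4* and *Myh8* follow each other within 230.4 kb of mouse chromosome 11 (chr11:67078273-67308634, GRCm38.p6), all on the plus strand, and the end of *Myh1* lies 13.2 kb from the start of *Myh4*. The 250 bases before each start were read from the RefSeq promoter table of that build, which held windows of 9 of the 10 genes. Capitals mark matches to the MEF2 consensus, a motif of muscle promoters, and to the CArG box, the serum response factor motif, both of which read as themselves on the other strand.
*Myh2*, chr11:67170777-67171026, plus strand: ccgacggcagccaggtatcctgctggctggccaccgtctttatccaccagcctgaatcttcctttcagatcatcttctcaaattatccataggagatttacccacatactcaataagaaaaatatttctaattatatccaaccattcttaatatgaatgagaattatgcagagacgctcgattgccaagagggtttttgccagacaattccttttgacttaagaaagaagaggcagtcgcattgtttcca
*Myh1*, chr11:67199852-67200101, plus strand: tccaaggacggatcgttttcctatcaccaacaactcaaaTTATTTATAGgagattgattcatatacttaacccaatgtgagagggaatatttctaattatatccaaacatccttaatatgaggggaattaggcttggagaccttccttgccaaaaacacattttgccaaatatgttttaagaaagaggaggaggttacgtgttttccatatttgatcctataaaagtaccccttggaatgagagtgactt
*Myh4*, chr11:67237562-67237811, plus strand: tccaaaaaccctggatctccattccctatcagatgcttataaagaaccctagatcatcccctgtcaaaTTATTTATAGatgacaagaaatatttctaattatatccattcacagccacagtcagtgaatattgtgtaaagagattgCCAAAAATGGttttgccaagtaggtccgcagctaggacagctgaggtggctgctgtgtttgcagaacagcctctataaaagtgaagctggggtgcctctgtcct
*Myh8*, chr11:67276874-67277123, plus strand: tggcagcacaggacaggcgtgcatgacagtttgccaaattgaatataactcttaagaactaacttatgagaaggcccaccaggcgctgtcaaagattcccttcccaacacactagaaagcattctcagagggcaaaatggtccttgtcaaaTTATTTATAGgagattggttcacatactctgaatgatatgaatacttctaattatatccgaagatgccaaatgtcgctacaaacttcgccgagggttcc
*Pvalb*, chr15:78206401-78206650, minus strand: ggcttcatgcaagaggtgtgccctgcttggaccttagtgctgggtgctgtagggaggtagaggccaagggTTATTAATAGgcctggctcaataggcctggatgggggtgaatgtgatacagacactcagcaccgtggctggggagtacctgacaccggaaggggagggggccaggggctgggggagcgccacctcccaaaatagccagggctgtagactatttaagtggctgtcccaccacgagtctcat

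The MEF2 consensus was found in the windows of 4 member genes and in 2.92% of all 32851 promoter windows of this length. Its first base lay 211 bases before the start in *Myh1*, 182 in *Myh4*, 99 in *Myh8* and 180 in the upstream of 2 windows of *Pvalb*. *Myh1*, *Myh4* and *Myh8* carried it within the same 15 bases, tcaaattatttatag, which no other window in the table held. The windows of *Myh1*, *Myh2* and *Myh4* shared a run of 20 bases, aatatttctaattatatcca, also found in no other window. Of the member genes, *Myh4* was the one with a CArG box (104 bases before its start), which 1.47% of all windows held. CANNTG, the general E-box with any middle bases, was present in 7 of the 9 genes and in 66.2% of all windows. These are matches of letters. The genes with the MEF2 consensus included *Myh4* and *Pvalb*, whose brightest probes spanned 51.8-fold and 3.72-fold over the arrays. They also included *Myh1* and *Myh8*, whose brightest probes spanned 1.36-fold and 1.07-fold. The other *Myh4* probes spanned 2.25-fold and 2.19-fold. The *Myh8* probe lies near the top of the scale, and its signal cannot be assigned to *Myh8* alone.

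Among 213 pairs of probes of different member genes, 1 pair shared a run longer than 12 bases. It was the probe of *Myh1* (A_51_P192042) and the brightest probe of *Myh8* (A_51_P143296), which share 19 bases, set here in capitals. The *Myh8* probe is given whole and the *Myh1* probe by its first 30 bases.
*Myh8*: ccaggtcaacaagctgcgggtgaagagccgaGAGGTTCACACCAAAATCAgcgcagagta
*Myh1*: gGAGGTTCACACCAAAATCAtaagcgaaga

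Of the 22 probes, 18 were well above background on all 8 arrays and entered the comparison of Pg with Co mice, at least 1 for each gene. The other 4 were 1 probe of *Myh3*, above background on 3 arrays, and 3 probes of *Myh8*, above background on none. No member probe was marked as saturated. A call in limma needed a fold change above 1.5 and an FDR q under 0.1. None of the 18 probes was called, where 1.61% of all 33819 tested probes were. An unadjusted p under 0.05 was reached by 3 of them, where 22.8% of all tested probes reached it. The Co and Pg values were apart without overlap in 1 of the 18, against 15.8% of all tested probes. The mean was higher in Pg mice for 9 of the 18 and lower for the other 9. The median difference over the 10 genes, each by its brightest probe, was -0.01, and over all tested probes -0.04. The members had been chosen with results of these arrays known, so these counts describe them and are no test of them as a group.

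**Figure D1:**
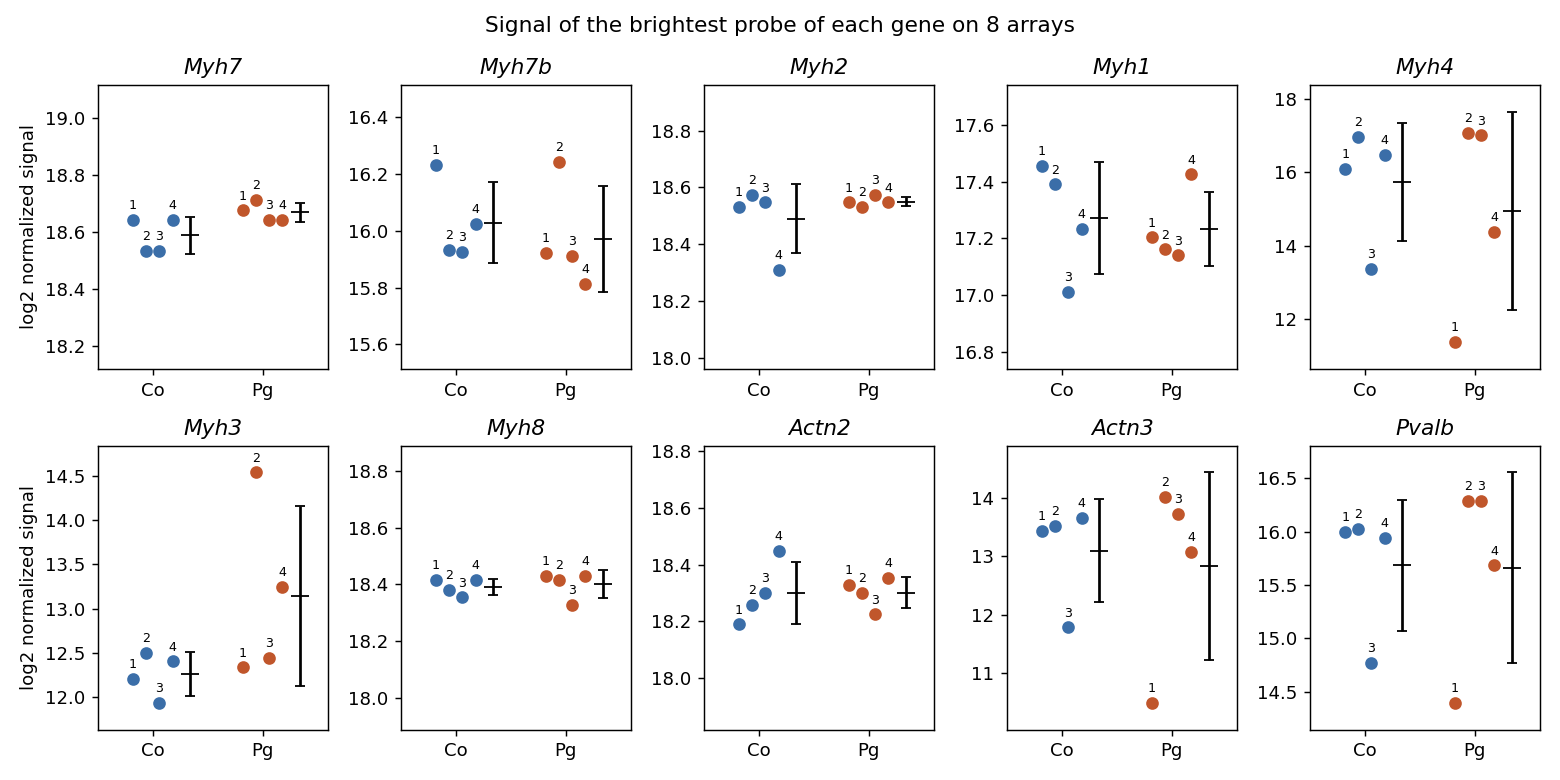
Log2 normalized signal (y axis, own scale in each panel) of the brightest probe of each gene in Co and Pg mice (x axis). Points are arrays with their replicate number, and the bar gives the mean ± SD of 4. *Myh4*, *Actn3* and *Pvalb* share their low arrays, Co 3 and Pg 1, while *Myh2*, *Myh7* and *Myh8* span 1.20-fold or less.

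*Myh4*, the IIb chain of the fastest fibres, was the member that varied most. Its brightest probe (A_51_P338072, chr11:67073834-67073893 in the mm9 coordinates of the scanner files, plus strand) read 16.09, 16.97, 13.38 and 16.48 on the Co arrays and 11.38, 17.07, 17.01 and 14.38 on the Pg arrays. The lowest array was Pg 1, followed by Co 3 and Pg 4, and the other 5 lay above 16. The lowest and highest array differed by 51.8-fold, and the SD over the 8 arrays, 2.10, exceeded that of 99.9% of the tested probes (median SD 0.18).

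Low and high *Myh4* arrays were found in both groups, and the groups overlapped widely. The mean of the 4 Co arrays was 15.73 ± 1.61 (SD) and that of the 4 Pg arrays 14.96 ± 2.70 (SD), a difference of -0.77 (standard error 1.37, adjusted p = 0.772 from limma). With 1 array left out this difference ran from -1.56 to 0.42, the upper value without Pg 1, which alone turned its direction.

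The other *Myh4* probes were also low on Co 3 and Pg 1, at smaller amplitude. A_55_P2744675, 19.6 kb upstream of the first, read 11.05, 11.46, 10.29 and 11.29 in Co mice and 10.54, 11.19, 11.18 and 11.25 in Pg mice, with Co 3 and Pg 1 again the lowest. A_55_P2744670, 21.5 kb upstream, read 7.35, 7.66, 6.83 and 7.10 in Co mice and 6.82, 7.53, 7.43 and 6.54 in Pg mice. Their lowest and highest arrays differed by 2.25-fold and 2.19-fold. Over the 8 arrays, which share a slide and their normalization, Pearson's r with the brightest probe was 0.80 and 0.78. Pg 4, low for the brightest probe and lowest of all for A_55_P2744670, was not low for A_55_P2744675, so the 3 probes did not place all arrays alike.

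*Actn3*, the α-actinin of fast fibres, followed *Myh4*. Its probe (A_52_P656699, on chromosome 19) read 13.43, 13.52, 11.78 and 13.65 in Co mice and 10.49, 14.01, 13.73 and 13.07 in Pg mice. Pg 1 was again lowest and Co 3 next, with a span of 11.5-fold. The groups differed by -0.27 (standard error 0.80, adjusted p = 0.868 from limma), less than the spread within either. With 1 array left out the difference ran from -0.71 without Co 3 to 0.51 without Pg 1.

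*Pvalb*, the calcium buffer, gave the same order at the low end. Its probe (A_55_P2114437, on chromosome 15) read 16.00, 16.03, 14.77 and 15.94 in Co mice and 14.39, 16.29, 16.29 and 15.68 in Pg mice, a span of 3.72-fold. The group means were 15.68 ± 0.61 and 15.66 ± 0.89 (SD, n = 4 each) and differed by -0.02 (standard error 0.47, adjusted p = 0.985 from limma), and with 1 array left out by -0.33 (without Co 3) to 0.40 (without Pg 1). The promoter windows of *Pvalb* and *Myh4* above thus belong to genes on different chromosomes whose signals fell on the same arrays.

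As a description over 8 arrays, *Myh4* and *Actn3* had a Pearson's r of 0.97 (Spearman's rho 0.98), *Myh4* and *Pvalb* 0.97 (rho 0.95), and *Actn3* and *Pvalb* 0.98 (rho 0.90). Without the 2 arrays farthest from the median of the first gene, r was 0.88, 0.88 and 0.90. *Myh2*, *Myh7*, *Myh8* and *Actn2* were left aside, as their brightest probes lie in a narrow range near the top of the scale. Among the other pairs the highest r was 0.44 (*Myh3* and *Pvalb*) and the highest rho 0.64 (*Myh3* and *Myh4*). Their highest r without 2 arrays was 0.57 (*Actn3* and *Myh7b*). Pg 1 was also the lowest array of all 3 genes under the 4 other ways of correcting and scaling the scanner signal, with a span of *Myh4* between 48.5-fold and 53.6-fold.

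**Figure D2:**
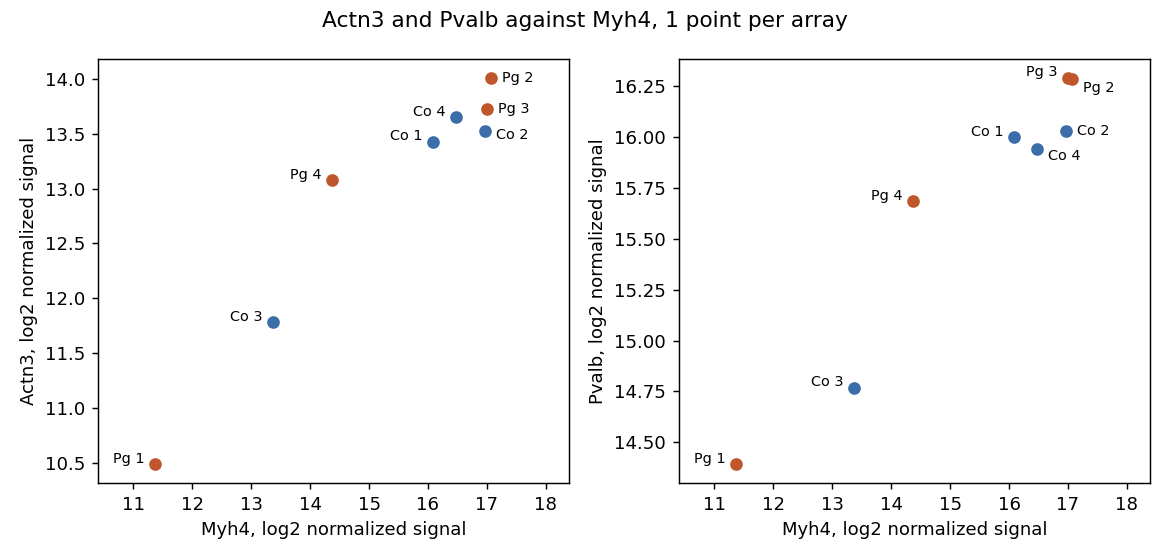
Log2 normalized signal of *Actn3* (left, y axis) and *Pvalb* (right, y axis) against *Myh4* (x axis), 1 point per array, Co in blue and Pg in orange. Pg 1, Co 3 and Pg 4 leave the 5 other arrays in that order from the left in both panels.

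*Myh2*, the IIa chain, spanned 1.20-fold over the 8 arrays at its brightest probe. This probe (A_51_P225134) read 18.53, 18.57, 18.55 and 18.31 in Co mice and 18.55, 18.53, 18.57 and 18.55 in Pg mice. Only Co 4 stood apart, and the difference was 0.06 (standard error 0.07, adjusted p = 0.646 from limma). At this height quantile normalization gives each array one of a few top values, so arrays can hold identical numbers. Before normalization the probe ranged from 18.25 to 18.65.

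The other probes of *Myh2* lie near the other end of the gene, 24.2 and 23.3 kb upstream, and read lower in Pg mice without a call. A_55_P2744634 read 12.26, 12.25, 12.06 and 12.26 in Co mice and 11.86, 11.95, 12.17 and 12.04 in Pg mice, a difference of -0.20 (standard error 0.08, adjusted p = 0.212 from limma). Within a span of 1.32-fold it was lowest of all on Pg 1 and lowest of the Co arrays on Co 3, both low for *Myh4*, but its next lowest array was Pg 2, the highest for *Myh4*. A_52_P582746, designed to the transcript ENSMUST00000124337, read 11.45, 11.86, 11.72 and 11.79 in Co mice and 11.22, 11.02, 11.50 and 11.49 in Pg mice, a difference of -0.39 (standard error 0.14, adjusted p = 0.145 from limma). In both, 1 Co array fell among the Pg values, Co 3 for the first and Co 1 for the second. The brightest probe was slightly higher in Pg mice, but differed by -0.10 when scaled to the 75th percentile and by -0.05 without normalization, so the direction for *Myh2* depends on the probe and the scaling.

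*Myh1*, the IIx chain, was measured by 1 probe. It read 17.45, 17.39, 17.01 and 17.23 in Co mice and 17.20, 17.16, 17.14 and 17.43 in Pg mice. Co 3, low for *Myh4*, was also its lowest array, but Pg 1 was not low, and r with *Myh4* was 0.22. The groups overlapped, with a difference of -0.04 (standard error 0.11, adjusted p = 0.86 from limma). The direction turned to 0.04 with normexp, 0.05 with the median signal, 0.11 in the authors' table and 0.02 without Co 1, and the difference was -0.14 with scaling to the 75th percentile.

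*Myh7*, the slow chain, spanned 1.13-fold over the 8 arrays at its brightest probe. A_55_P2093232 read 18.64, 18.53, 18.53 and 18.64 in Co mice and 18.68, 18.71, 18.64 and 18.64 in Pg mice, with a difference of 0.08 (standard error 0.05, adjusted p = 0.415 from limma). The second probe, A_65_P07389, lies 10.6 kb upstream (chr14:55600186-55600245, mm9, minus strand) and was designed to ENSMUST00000149852. It read 13.14, 12.88, 12.73 and 12.76 in Co mice and 12.40, 12.17, 12.59 and 12.62 in Pg mice. This was the 1 member probe whose groups did not overlap, and with a difference of -0.43 (standard error 0.13, adjusted p = 0.112 from limma) it missed both limits of a call. Its adjusted p passed the FDR limit under 4 of 16 alternatives, at 0.0747 with normexp, 0.0763 with the median signal, 0.0915 among probes above background on all 8 arrays and 0.0992 in the authors' table, and was 0.119 to 0.234 under the other 12, and the fold limit was missed under all 16. The brightest probe differed the other way, but turned to -0.06 with scaling to the 75th percentile and -0.01 without normalization, while this one stayed between -0.41 and -0.47 under 4 other ways of correcting and scaling the signal.

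*Myh7b*, the relative of the slow chain, had 1 bright and 1 dim probe. A_66_P138345 read 16.23, 15.93, 15.93 and 16.03 in Co mice and 15.92, 16.24, 15.91 and 15.81 in Pg mice, with a difference of -0.06 (standard error 0.11, adjusted p = 0.793 from limma). The dim probe, A_55_P2742560, ranged from 4.80 to 5.57 and differed by 0.25 (adjusted p = 0.349 from limma), but by 0.05 with the median signal, 0.12 with normexp, 0.13 in the authors' table, 0.39 with the 75th percentile, 0.44 without normalization and 0.16 without Co 3. The bright probe turned to 0.01 without Co 1 and ran from -0.15 (without Pg 2) to that value with 1 array left out. In neither probe did the arrays part by group.

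*Myh3*, the embryonic chain, held the largest positive difference of the members, and 1 array carried most of it. A_55_P2066440 read 12.20, 12.50, 11.93 and 12.40 in Co mice and 12.34, 14.54, 12.44 and 13.25 in Pg mice. Pg 2 stood highest and Pg 4 next, while Pg 1 and Pg 3 lay within the Co values. The difference was 0.88 (standard error 0.46, adjusted p = 0.297 from limma), and without Pg 2 it was 0.42. The dim probe, A_55_P2744649, cleared the background limit on 3 arrays and was highest on Pg 2 as well, at 5.19.

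*Myh8*, the perinatal chain, was bright with 1 probe and dark with 3. A_51_P143296, which shares 19 bases with the *Myh1* probe, read 18.41, 18.38, 18.35 and 18.41 in Co mice and 18.43, 18.41, 18.33 and 18.43 in Pg mice. The other probes lie 13.6 to 29.4 kb upstream and read 1.93 to 3.69, not well above background on any array. The signal of the bright probe can therefore not be assigned to *Myh8* alone, and whether it holds RNA of another heavy chain was not tested.

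*Actn2*, the α-actinin of all striated fibres, had 3 tested probes. A_65_P13435 ranged from 18.19 to 18.45 and differed by 0.00 (standard error 0.07, adjusted p = 0.988 from limma), and A_51_P108266 ranged from 17.05 to 17.28 and differed by 0.06 (adjusted p = 0.59 from limma). The third probe, A_55_P2163438, 38.9 kb upstream and designed to AK047768, ranged from 8.62 to 9.65 and differed by 0.20 (adjusted p = 0.639 from limma), or by 0.08 without Pg 1, 0.43 without Pg 2 and 0.09 without Pg 3. With scaling to the 75th percentile the first 2 probes differed by -0.17 and -0.04, so that no direction is given for them.

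**Figure D3:**
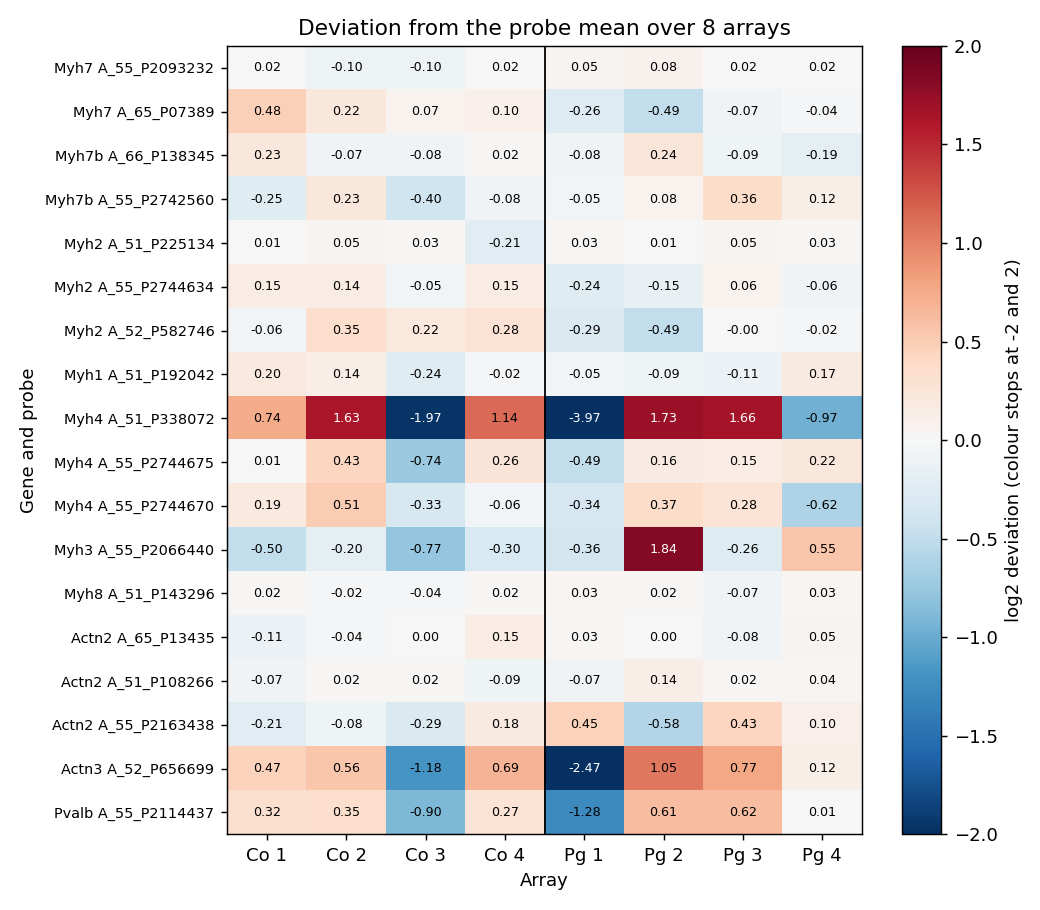
Deviation of each array (x axis) from the mean of the probe over 8 arrays, on the log2 scale, for the 18 tested probes (y axis), with the value printed in each cell. Blue cells for Co 3 and Pg 1 run through the 3 *Myh4* probes, *Actn3* and *Pvalb*, and the *Myh3* probe is red on Pg 2.

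**Figure D4:**
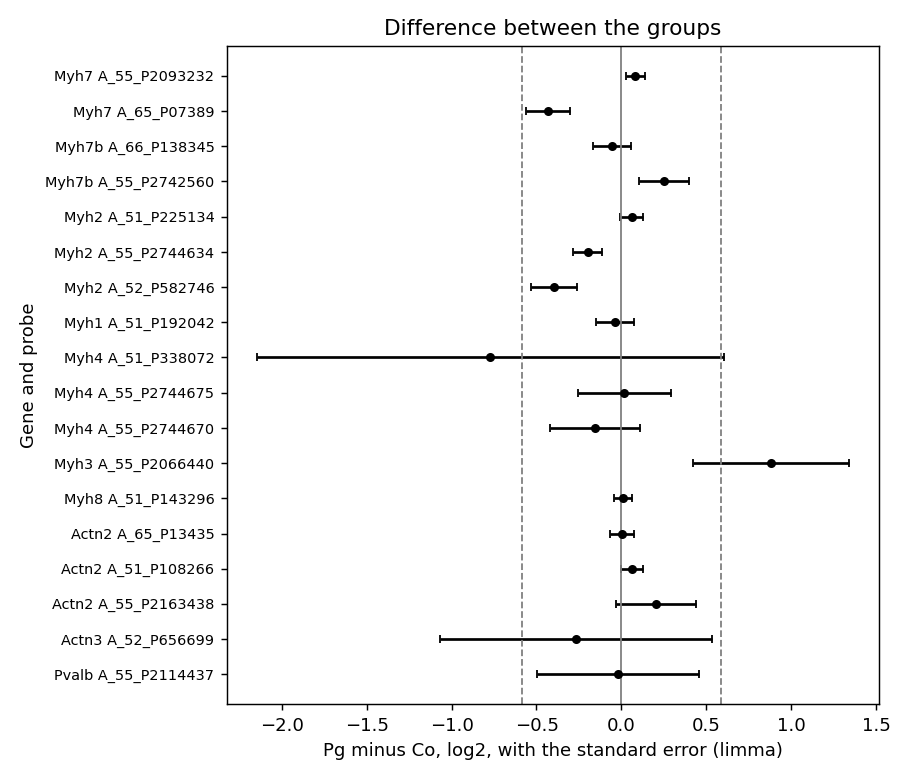
Difference Pg minus Co on the log2 scale (x axis, point) with its standard error from limma (bar, n = 4 arrays per group) for the 18 tested probes (y axis). Dashed lines mark the 1.5-fold limit. The *Myh4* probe at -0.77 and the *Myh3* probe at 0.88 pass it, with standard errors of 1.37 and 0.46.

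Other genes of fast and slow fibres were read from lists. Among 17 fast-fibre partners, 5 had an r above 0.8 with *Myh4* over the 8 arrays. Among 12 slow-fibre partners none did, the highest r being 0.63 for *Atp2a2*. Of the slow-fibre partners, *Tnnt1*, *Myl3* and *Myl2* lay between 18.24 and 18.75, near the top of the scale, where an order over arrays can hardly be read. Of 22441 tested genes outside the members, counted by the RefSeq symbol of the probe's accession or else the array's own name, 0.811% had an r above 0.8. The 5 were *Casq1*, the fast-fibre calcium store protein of the sarcoplasmic reticulum (r = 0.93), *Mybpc2*, the fast myosin-binding protein C (0.91), *Gpd1*, a glycerol phosphate shuttle enzyme (0.84), *Myl1*, a fast essential light chain (0.82), and *Mylk2*, the skeletal light chain kinase (0.80).

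*Mybpc2* read 14.28, 14.28, 13.20 and 14.28 in Co mice and 12.97, 14.73, 14.17 and 14.17 in Pg mice, low on Co 3 and Pg 1. *Casq1* had the same low arrays within a narrower range of 14.56 to 15.03. *Pgam2*, a glycolytic enzyme, had the lowest r of the 17 with *Myh4*, at -0.65, within a range of 17.38 to 17.57, and *Tnnc2*, the fast troponin C, had -0.21. The fast troponins *Tnnt3* and *Tnni2* held the top values of the normalized scale on all arrays (18.81 to 18.84), where their order over arrays cannot be read. *Myl1*, at 17.90 to 18.17, also lay in a narrow range near the top of the scale.

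**Figure D5:**
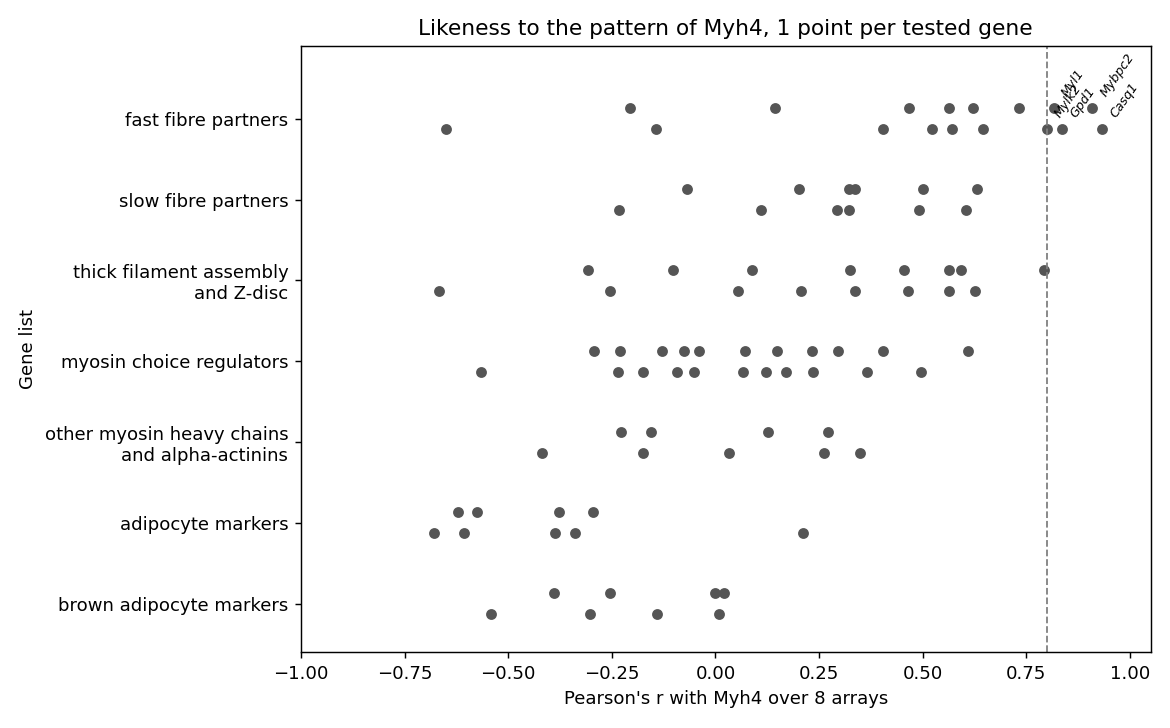
Pearson's r of each tested gene with *Myh4* over the 8 arrays (x axis), 1 point per gene, by list (y axis). The dashed line marks 0.8, which 5 fast-fibre partners pass, and no gene of the other lists shown does. The split depends on this limit, as *Mylk2* passes at 0.8001 and the Z-disc gene *Ldb3* misses at 0.7921.

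None of the 17 fast-fibre partners was called in limma. The fast-fibre list had a median difference of -0.04, with 6 higher and 11 lower genes in Pg mice, and 3 of them had an unadjusted p under 0.05. *Atp2a1*, the fast calcium pump of the sarcoplasmic reticulum, read 16.14, 16.24, 16.03 and 16.18 in Co mice and 15.67, 15.72, 15.79 and 15.65 in Pg mice. Its groups did not overlap, and its difference of -0.44 (standard error 0.06, adjusted p = 0.0411 from limma) passed the FDR limit but not the 1.5-fold limit. Its lowest array among the Co mice was Co 3 and its lowest among the Pg mice were Pg 4 and Pg 1, all low for *Myh4* as well, while r with *Myh4* over the 8 arrays of both groups was 0.41. *Gpd1* differed by -0.28 (adjusted p = 0.445) and *Myoz1*, a fast Z-disc protein, by -0.23 (adjusted p = 0.146 from limma).

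The slow-fibre list had 5 higher and 7 lower genes with a median of -0.02, and its largest differences were 0.32 for *Myl6b* (adjusted p = 0.517), 0.20 for *Casq2* (adjusted p = 0.374) and 0.16 for *Csrp3* (adjusted p = 0.491 from limma). No slow-fibre gene was called in limma or had an unadjusted p under 0.05.

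The regulators of heavy chain choice had 7 higher and 15 lower genes of 22, with a median of -0.06, no call in limma and 3 with an unadjusted p under 0.05. The myogenic factor *Myod1* differed by -0.40 (standard error 0.34, adjusted p = 0.53 from limma) and *Nfatc3*, a calcineurin-responsive factor, by 0.27 (adjusted p = 0.169 from limma). None of the 22 had an r above 0.61 with *Myh4*, a value reached by *Tead4*. The MEF2 genes, whose consensus was searched above, had differences of -0.04 for *Mef2a*, 0.07 for *Mef2c* and 0.05 for *Mef2d*.

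Thick filament and Z-disc genes had 9 higher and 7 lower of 16, with no call in limma and 4 with an unadjusted p under 0.05. *Hsp90aa1*, a chaperone that helps fold the myosin head, read 12.19, 12.70, 12.52 and 12.31 in Co mice and 13.13, 12.97, 12.92 and 12.88 in Pg mice. The groups did not overlap, and the difference of 0.55 (standard error 0.12, adjusted p = 0.0645 from limma) passed the FDR limit but not the fold limit. *Myom3*, an M-band protein, differed by 0.26 (adjusted p = 0.166) and *Pdlim3*, a Z-disc protein, by 0.23 (adjusted p = 0.283 from limma), while the myosin chaperone *Unc45b* differed by 0.06.

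Of the other myosin heavy chains and α-actinins, 8 of 9 had a higher mean in Pg mice (median 0.08), limma called none, and an unadjusted p under 0.05 was reached by 3. *Myh6*, the fast chain of the heart, read 11.31, 11.53, 11.36 and 11.50 in Co mice and 11.77, 11.70, 11.68 and 11.61 in Pg mice, and *Myh14*, a nonmuscle chain, read 13.75, 13.76, 13.78 and 13.68 against 13.88, 14.05, 13.96 and 13.92. Neither gene overlapped between the groups, at differences of 0.26 (adjusted p = 0.0897) and 0.21 (adjusted p = 0.0924 from limma), both under the fold limit. *Myh10*, another nonmuscle chain, differed by 0.26 (adjusted p = 0.21 from limma).

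The adipocyte markers differed between the low arrays of *Myh4*, Co 3 and Pg 1. On Co 3 *Fabp4* (16.20, close to the 16.21 of Pg 2) and *Lep* (8.39) were lowest of the 8 arrays and *Lpl* (17.15) was highest. On Pg 1 none was lowest, *Plin1*, *Cfd*, *Pparg* and *Retn* were highest, and *Adipoq* (11.09) and *Cidec* (11.81) were exceeded only on Co 2. All 9 were tested. Their r with *Myh4* was negative for all but *Lep* (0.21), from -0.68 for *Cfd* to -0.295 for *Cidec*. The median r over tested genes outside the members was -0.02. The log2 of the markers' summed signal was 17.69 to 17.87 in Co and 17.62 to 17.88 in Pg mice. *Lpl* and *Fabp4* made up 87.7% to 95.4% of the summed signal before the log. *Plin1*, the lipid droplet coat protein, was highest on Pg 1 at 8.27 and on Co 2 at 7.67, an array low and an array high for *Myh4*. The part of adipocytes in the *Myh4* pattern was not tested. Of the 7 satellite cell and regeneration markers, *Myf5* was above background on no array, *Chrng* on 7 arrays and the other 5 on all 8. The largest differences in the adipocyte list were 0.35 for *Plin1*, 0.23 for *Pparg* and 0.20 for *Cfd*, and in the brown adipocyte list 0.59 for *Dio2* (adjusted p = 0.129), -0.36 for *Ppargc1a* and -0.34 for *Zic1*. Those of the smooth muscle list were 0.50 for *Myocd*, -0.20 for *Tagln* and 0.13 for *Cnn1*, those of the heart list 0.45 for *Myl4* (adjusted p = 0.104), -0.30 for *Tnni3* and 0.05 for *Nppa*, and those of the satellite cell list 0.51 for *Chrng*, the fetal acetylcholine receptor subunit, 0.26 for *Ncam1* and -0.14 for *Chrna1*, none of them called by limma. An unadjusted p under 0.05 was reached by 1 adipocyte, 2 brown adipocyte, 0 smooth muscle, 1 heart and 1 satellite cell marker.

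The genes most like *Myh4* over the 8 arrays were named by rule, as a description, from 19742 genes whose probe was above background on all arrays. They included *Smox* (r = 0.96), *Pnmal1* (0.96), the transcript ENSMUST00000085735 (0.96) and *Snx32* (0.96). These 4 were lowest on Pg 1 and next lowest on Co 3, and without these arrays r was 0.72 to 0.83. *Smox* ran from 9.97 to 11.20, far narrower than *Myh4*. The brightest probes of *Myh2* and *Myh7* took a few of the top values that normalization assigns, so no like genes are given for them.

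1 noncoding gene of the cluster was looked at after its values were seen. *2310065F04Rik* (probe A_55_P2732648), a lncRNA gene between *Myh3* and *Myh2* (chr11:67112461-67120080, GRCm38.p6), read 10.18, 10.51, 9.51 and 10.14 in Co mice and 9.62, 10.17, 10.59 and 10.10 in Pg mice. Co 3 and Pg 1 were again its lowest arrays, its r with *Myh4* was 0.86, and the groups differed by 0.04 (standard error 0.25, adjusted p = 0.947 from limma).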

How the data were processed

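RNA of 4 Co and 4 Pg mice was measured on 8 Agilent one-color arrays. The scanner output of each array, extracted by the authors with Feature Extraction 11.0.1.1, was deposited, and in it the intensity of each spot is background-subtracted and detrended but not normalized between arrays. The authors also deposited a table of quantile-normalized log2 values, where an entry averages the probes of an accession, and their limma results, which were not used. Here spots marked as population outliers were left out, probe means were quantile-normalized, raised to at least 1 and log2-transformed with R 4.3.3 (package data.table, version 1.17.8). A two-sided limma 3.58.1 fit with adjustment after Benjamini and Hochberg was run on the 33819 probes above background on 4 or more arrays, and probes were called at a q under 0.1 and a fold above 1.5. The steps were tested on simulated data. A gene was represented by its brightest probe. The lists' 3 largest differences and called genes, and the 5 genes most like *Myh2*, *Myh4* and *Myh7*, were to be named by rule, but those like *Myh2* and *Myh7* and a few others are not reported here. Members and lists were chosen with earlier results of these data known. With 4 arrays per group, their number limits the precision. Alternatives covered background correction, scaling, filters, replicate block, left-out arrays and the authors' table.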

Additional observations from a re-analysis of the deposited data

Results flagged for a closer look

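Within groups of 4 arrays, 44 groups (22 probes in each of 2 groups) were searched for 1 array far from the others, by a gap to the nearest array above Dixon's critical share of the group's range, and 6 were found. Chance gives such a gap in about 1 of 20 groups. *Actn3* stood apart on Co 3 at 11.78 and *Pvalb* on Co 3 at 14.77. The *Myh4* probe A_55_P2744675 stood apart on Pg 1 at 10.54. The *Myh2* probe A_55_P2744634 stood apart on Co 3 at 12.06. The bright *Myh2* probe stood apart on Co 4 at 18.31 and the bright *Myh8* probe on Pg 3 at 18.33, both within narrow ranges. All but the last 2 are low values on Co 3 or Pg 1, the arrays lowest for *Myh4*.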

How the results depend on the processing

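The number of all probes called moved with the processing, from 546 (19.4% of them higher in Pg mice) to 94 with normexp on the mean signal (70.2% higher), 108 with the median signal (69.4%), 283 with scaling to the 75th percentile (48.4%), 27 without normalization between arrays (74.1%), 318 among probes above background on all 8 arrays (33.6%) and 106 in the authors' table. With 1 array left out it ran from 3 (without Co 3) to 698 (without Pg 3). The replicate numbers are not stated to pair the samples, but arrays with the same number share a column of the slide. Deviations of arrays with the same number had r of -0.07 to 0.18, and those of all Co and Pg arrays -0.15 to 0.18. Such weak values cannot decide on a pairing. A fit with the number as a block called 0 probes, members included. Member probes called stayed at 0 in limma under 15 of 16 alternatives, with 2 to 6 at an unadjusted p under 0.05, and was 1 without the filter on dim probes. That probe was A_55_P2744654 of *Myh8*, above background on no array. Member probes without overlap between the groups numbered 1, or 2 with the median signal, 3 with the 75th percentile, 4 without normalization, 2 without the filter and 1 to 2 with 1 array left out. The median difference over the member genes was -0.01, moved to -0.12 with the 75th percentile, and stayed within 1 SD under the other 15 alternatives. Of 160 differences of single genes, 148 moved by less than 1 SD. The fits without the filter, on probes above background on all 8 arrays and with the block reuse the same normalized values. Differences and their median cannot move there, so they count as unmoved by construction. The SD is that within groups. For *Myh4* it was 2.22, so its moves to -1.56 and 0.42 also count as less than 1 SD. In the authors' table, entries of *Myh2*, *Myh4* and *Actn2* each average 2 probes, and *Myh4* spans 9.15-fold there. The causes of these moves were not tested.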
